A study of Mus musculus with 4 samples.

Results

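The genes described here are 10 genes of group 2 lymphoid cells and of type 2 cytokines, chosen by name from a table of 43346 mouse genes. They are the cytokine genes Il5, Il13, Il4, Csf2 and Areg, the transcription factor genes Gata3 and Rora, and the surface receptor genes Il7r, Klrg1 and Icos. Each matched 1 row of the table, and all 10 were among the 20872 genes that passed a filter on low counts. The table holds polyadenylated RNA from mice with IL-33 over-expression, named IL-33 transgenic in the sample titles (libraries B and E, transgenic replicates 1 and 2), and from control mice (libraries D and F, control replicates 1 and 2), where the numbers only name the libraries and pair none of them. The promoter of the transgene, the strain, the age and the number of mice per library are not known from the labels, so the p-values reflect only the spread between these libraries. The samples are labelled as epithelial cells of the lung, whereas the series title speaks of lung tissue.

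Group 2 innate lymphoid cells (ILC2s) are tissue lymphocytes without rearranged antigen receptors. In the lung they carry the IL-33 receptor and answer IL-33 with IL-5, IL-13, GM-CSF (the product of Csf2) and amphiregulin (the product of Areg). Their development and function depend on GATA3 and RORα, and IL-7 receptor, ICOS and, on activated cells, KLRG1 mark their surface. T helper 2 cells share most of these genes and make IL-4 as well, KLRG1 is also found on natural killer and effector T cells, and amphiregulin and GM-CSF are made by epithelial cells too.

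The libraries held 76120696 (B), 80764860 (D), 87723745 (E) and 85330145 (F) gene counts. Il33 itself, the check of the labels, stood at 1720 CPM (B) and 874 CPM (E) in the transgenic libraries and 117 CPM (D) and 108 CPM (F) in the controls, where CPM are counts per 1000000. Expression from the Y chromosome (Ddx3y, Uty, Kdm5d and Eif2s3y, summed) differed within the groups and between them: as a percent of D it came to 0.554 (B), 9.0 (E) and 47.5 (F), so the genotypes compared also differed in their share of male RNA. All 16 lung epithelial markers were detected and tested. Their summed level was 64700 CPM (B) and 41400 CPM (E) in transgenic and 53700 CPM (D) and 38300 CPM (F) in control libraries. The 10 endothelial markers summed to 5290 CPM (B), 8500 CPM (E), 6810 CPM (D) and 9340 CPM (F). The 10 markers of fibroblasts and smooth muscle summed to 1490 CPM (B), 3180 CPM (E), 2270 CPM (D) and 3720 CPM (F). The libraries were thus not of epithelial RNA alone. Epithelial sums were higher in B and D than in E and F, and the endothelial and fibroblast sums were lower, a split that ran across the genotypes.

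None of the 10 genes passed the test between the genotypes, and for most a ratio between libraries of 1 genotype exceeded the fitted fold between the genotypes. Of the 10 genes, 0 passed as higher and 0 as lower at a threshold of 0.05 on the adjusted p (edgeR's quasi-likelihood test with Benjamini-Hochberg adjustment over 20872 genes, adjusted p = 1 for each), where the share over all genes tested was 0.0% in either direction. Il33, the check of the labels, had a log2 fold change of 3.53 (SE 0.37) and did not pass in this fit either. Not passing therefore does not show that a gene was unchanged. At an unadjusted p under 0.05 there were 0 of the 10, against 0.896% of all genes higher and 0.393% lower. DESeq2 and limma-voom called 0 of the 10 too, while over all genes DESeq2 called 0.00479% and limma-voom 0.0%. For 3 of the 10, Il5, Csf2 and Il7r, both transgenic libraries lay above both controls, and for 0 both lay below, where the shares over all genes tested were 11.9% and 12.0%. With 1 library left out, 2 libraries face 1 and fewer genes overlap. The first count was then 6 without B (28.2% of all genes tested), 3 without D (30.7%), 4 without E (35.6%) and 8 without F (27.1%). The second was 1 without B (28.0%), 3 without D (31.8%), 1 without E (38.7%) and 0 without F (27.0%). The log2 fold change was above 0 for 9 of the 10, against 49.6% of all genes, with a median of 0.14 against -0.0013 over all genes. For 7 of the 10 the larger ratio between the libraries of 1 genotype exceeded the fitted fold difference between genotypes. That ratio is of single libraries and the larger of 2, while the fold is fitted over 2 libraries each, so the comparison favours the ratio. The share of all genes for which this holds was not counted. Fewer cells of a type and less RNA per cell cannot be told apart in such bulk libraries.

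**Figure D1:**
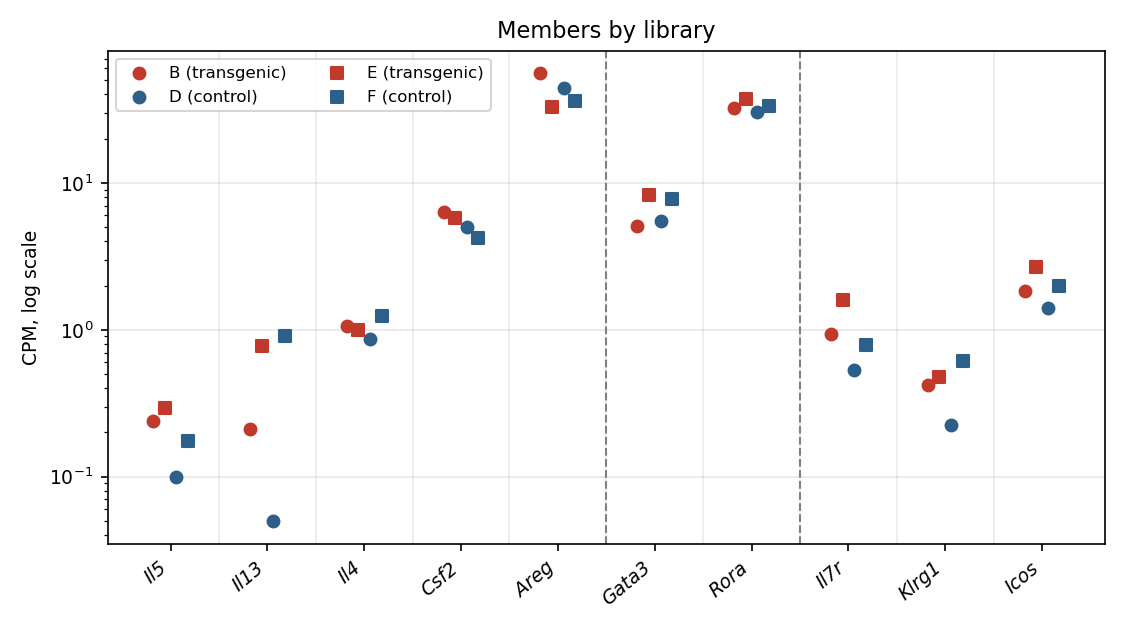
Level of each gene in CPM on a log scale in the 2 transgenic (red) and 2 control (blue) libraries, with dashed lines between cytokines, transcription factors and surface receptors. Il5, Csf2 and Il7r are the 3 genes with both red points above both blue ones, and Il13 spreads most, from 0.0496 CPM in D to 0.904 CPM in F.

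Per length of gene model, the genes spanned a wide range of levels. In the RPKM values deposited by the authors, Areg was highest, at a mean of 28.5 RPKM over the 4 libraries and a range of 22.7 to 37.4. Csf2 followed at 5.40 (4.32 to 6.33), then Rora at 2.08 (1.86 to 2.38) and Gata3 at 1.37 (1.03 to 1.73), and the ranges of these 4 genes did not overlap. Below them all 6 other genes were under 1 RPKM in every library. Il4 stood at a mean of 0.693 RPKM, Icos at 0.471, Il13 at 0.333, Klrg1 at 0.251, Il7r at 0.246 and Il5 at 0.107, and in this order each range overlapped that of the next gene.

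The 5′ flanking sequences are shown for the 3 genes whose genotypes did not overlap and for Il13, the most variable. They come from RefSeq (GRCm38.p6), each with 250 bases before and 50 bases after the annotated start, printed in the direction of transcription. Of the 10 genes, 8 had such a sequence, and Klrg1 and Icos had none in the table used. Capitals mark GATA, the core of the motif bound by GATA3, on either strand (GATA or TATC).
Il5, chr11:53720544-53720843, plus strand: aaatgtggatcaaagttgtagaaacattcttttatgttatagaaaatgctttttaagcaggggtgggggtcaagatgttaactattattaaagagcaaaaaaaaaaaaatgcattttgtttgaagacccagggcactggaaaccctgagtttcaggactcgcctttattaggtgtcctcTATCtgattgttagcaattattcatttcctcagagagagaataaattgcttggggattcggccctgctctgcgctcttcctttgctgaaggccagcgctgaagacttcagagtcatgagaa
Il13, chr11:53634653-53634952, minus strand: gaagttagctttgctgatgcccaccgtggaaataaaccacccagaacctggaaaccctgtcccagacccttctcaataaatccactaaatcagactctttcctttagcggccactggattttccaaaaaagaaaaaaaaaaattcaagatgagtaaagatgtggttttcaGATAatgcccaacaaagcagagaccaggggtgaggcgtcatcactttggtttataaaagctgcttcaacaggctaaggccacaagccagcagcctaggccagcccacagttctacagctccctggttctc
Csf2, chr11:54249850-54250149, minus strand: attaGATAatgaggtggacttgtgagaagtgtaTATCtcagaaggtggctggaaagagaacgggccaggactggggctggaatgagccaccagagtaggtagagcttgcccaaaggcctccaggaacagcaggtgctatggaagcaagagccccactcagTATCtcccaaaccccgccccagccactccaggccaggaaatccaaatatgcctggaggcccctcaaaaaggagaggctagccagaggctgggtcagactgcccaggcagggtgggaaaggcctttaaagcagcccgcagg
Il7r, chr15:9529827-9530126, minus strand: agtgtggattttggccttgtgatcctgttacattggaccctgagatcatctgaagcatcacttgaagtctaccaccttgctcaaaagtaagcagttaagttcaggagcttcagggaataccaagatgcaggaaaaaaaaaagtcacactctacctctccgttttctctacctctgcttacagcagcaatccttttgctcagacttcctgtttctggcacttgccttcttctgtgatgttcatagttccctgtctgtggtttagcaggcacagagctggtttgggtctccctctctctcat
GATA occurred 1 time in the Il5 window, 1 time in that of Il13 and 3 times in that of Csf2, and its letters are not in the Il7r window. Over the 8 genes with a sequence, 6 held it in at least 1 window, and 57.9% of all 32851 promoter windows of 300 bases did. GGAAA on either strand (GGAAA or TTTCC), the core bound by NFAT factors of activated lymphocytes, occurred in 8 of the 8 and in 61.3% of all windows. TGANTCA, the AP-1 motif, occurred in 0 of the 8 and in 7.81% of all windows. These matches are descriptions of letters, and no binding was measured. In GENCODE M21 the Il7r gene reaches to base 9530176, so the Il7r window lies inside the gene in that annotation.

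Il5 encodes the growth and survival factor of eosinophils, which is the cytokine most closely tied to ILC2s. The gene (ENSMUSG00000036117, chromosome 11, 53720794 to 53725106, GRCm38) had 18 counts in B and 26 in E, against 8 in D and 15 in F, which is 0.238 and 0.293 CPM against 0.0993 and 0.176 CPM. Both transgenic libraries lay above both controls, at 0.266 ± 0.039 CPM against 0.138 ± 0.054 CPM (SD, n = 2 each). The log2 fold change of 0.94 (SE 0.48, 95% interval -0.30 to 2.19), a fold of 1.92, did not pass (adjusted p = 1, edgeR). The counts were few. Exact 95% Poisson intervals, which cover counting error only, were 10.7 to 28.4 counts in B and 17 to 38.1 in E. Those of the controls were 3.45 to 15.8 (D) and 8.4 to 24.7 (F). The interval of F overlapped both transgenic ones, and that of D overlapped that of B. Without control replicate 2 (F) the log2 fold change was 1.41, and with the Y-linked level as a covariate it was 0.04 (SE 1.34). That covariate largely ran with genotype, at 0.554 (B), 9.0 (E) and 47.5 (F) as a percent of D. For all 10 genes this fit can therefore hardly part the share of male RNA from genotype, and no conclusion is drawn from it. The predicted antisense gene Gm12214 overlaps Il5 on the other strand and had 6 (B), 9 (E), 3 (D) and 3 (F) counts. Whether counting used strand is not stated in the labels or the table, so reads of such a pair cannot be told apart.

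Il13, the cytokine that drives mucus production and airway hyperreactivity, differed most between libraries of the same genotype. The gene (ENSMUSG00000020383, chromosome 11, 53631324 to 53634702) had 16 counts in B and 69 in E, against 4 in D and 77 in F, or 0.212 and 0.779 CPM against 0.0496 and 0.904 CPM. Library D lay lowest and F highest, so the 2 controls enclosed both transgenic libraries. The ratio of F to D was 18.2 and that of E to B was 3.68, and the Poisson intervals of D (1.09 to 10.2 counts) and F (60.8 to 96.2) lay far apart. Ratios of transgenic over control libraries ran from 0.234 (B over F) to 15.7 (E over D). The log2 fold change was 0.06 (SE 1.21, 95% interval -3.05 to 3.17, adjusted p = 1, edgeR), and the limma-voom estimate was 0.89. The direction of this fold change turned without control replicate 1 (D, -0.85), without transgenic replicate 2 (E, -1.18) and with the Y-linked covariate (-3.49, SE 1.69). Without control replicate 2 (F) it was 3.29. The turned values without D and without E were smaller in size than the SE with all libraries, 1.21.

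Il4, encoding the cytokine that switches B cells to IgE and T cells to the T helper 2 fate, was the least variable of the 3 type 2 cytokine genes on chromosome 11. The gene (ENSMUSG00000000869, chromosome 11, 53602982 to 53618669) stood at 1.06 CPM (B) and 1.004 CPM (E) in the transgenic libraries and 0.869 CPM (D) and 1.23 CPM (F) in the controls (80, 89, 70 and 105 counts). The controls enclosed both transgenic libraries, and the group means were 1.03 ± 0.039 and 1.05 ± 0.26 CPM (SD, n = 2 each). The log2 fold change was -0.03 (SE 0.29, 95% interval -0.78 to 0.73, adjusted p = 1, edgeR), and it turned without control replicate 2 (F, 0.25) and without transgenic replicate 2 (E, 0.002). With the Y-linked covariate it was -0.67 (SE 0.78). Of its 4 annotated transcripts in GENCODE M21, 1 is a non-coding processed transcript, so the gene count need not be of coding RNA alone.

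Csf2 encodes GM-CSF, which the alveolar epithelium makes as the maturation factor of alveolar macrophages and which ILC2s and T cells make on activation. The gene (ENSMUSG00000018916, chromosome 11, 54247271 to 54249667) stood at 6.30 CPM (B) and 5.73 CPM (E) in the transgenic libraries and 4.99 CPM (D) and 4.19 CPM (F) in the controls (476, 508, 402 and 357 counts). Both transgenic libraries lay above both controls, and the 4 ratios between them ran from 1.15 to 1.5. The log2 fold change was 0.39 (SE 0.19, 95% interval -0.09 to 0.87, adjusted p = 1, edgeR), or 0.69 (SE 0.55) with the Y-linked covariate. The group means were 6.02 ± 0.40 and 4.59 ± 0.56 CPM (SD, n = 2 each). This was the narrowest spread within both genotypes among the 3 genes whose genotypes did not overlap. The predicted gene Gm12223, antisense to Csf2, stood at 1.55 CPM (B), 1.44 CPM (E), 1.25 CPM (D) and 0.998 CPM (F), in the same order as Csf2 (log2 fold change 0.41). The start that RefSeq gives for Csf2 lies upstream of the 5′ end of the counted gene model, at base 54249667.

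Areg encodes amphiregulin, a ligand of the EGF receptor that ILC2s release in tissue repair and that epithelial cells make themselves. The gene (ENSMUSG00000029378, chromosome 5, 91139615 to 91148432) stood at 55.8 CPM (B) and 32.7 CPM (E) in the transgenic libraries and 44.1 CPM (D) and 35.8 CPM (F) in the controls. The 2 transgenic libraries were the highest and the lowest of all and enclosed both controls. The log2 fold change was 0.15 (SE 0.28, 95% interval -0.56 to 0.85, adjusted p = 1, edgeR), and it turned without transgenic replicate 1 (B, -0.29). With the Y-linked covariate it was 0.38 (SE 0.62).

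The transcription factors that set ILC2 identity did not separate the genotypes. Gata3 (ENSMUSG00000015619, chromosome 2, 9857078 to 9890034), the master regulator of T helper 2 cells and ILC2s, stood at 5.07 CPM (B) and 8.26 CPM (E) in the transgenic libraries and 5.47 CPM (D) and 7.77 CPM (F) in the controls. Libraries B and D were low and E and F high, 1 of each genotype in either pair, and the log2 fold change was 0.01 (SE 0.31, 95% interval -0.79 to 0.81, adjusted p = 1, edgeR). Its direction turned without control replicate 1 (D, -0.22), without transgenic replicate 2 (E, -0.39) and with the Y-linked covariate (-0.47, SE 0.66). Rora (ENSMUSG00000032238, chromosome 9, 68653786 to 69388246), the nuclear receptor gene that ILC2 development requires and that many other tissues express, stood at 32.5 CPM (B) and 37.3 CPM (E) in the transgenic libraries and 30.3 CPM (D) and 33.2 CPM (F) in the controls. Its highest level was 1.23 times its lowest, the narrowest range of the 10 genes. Library B lay below F, so the genotypes overlapped. The log2 fold change was 0.14 (SE 0.12, 95% interval -0.17 to 0.44, adjusted p = 1, edgeR), or 0.01 (SE 0.34) with the covariate. The interval without it was the narrowest of the 10. Other annotated genes that overlap Gata3, Rora and Icos had at most 49 counts in any library. Among them, 9230102O04Rik lies on the same strand as Gata3 and Gm37039 on the same strand as Icos.

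The surface receptor genes were scarce, and Il7r had the smallest p of the 10 genes. Il7r (ENSMUSG00000003882, chromosome 15, 9506161 to 9529876) encodes the IL-7 receptor α chain, needed for survival of innate lymphoid cells and of naive and memory T cells. It stood at 0.940 CPM (B) and 1.59 CPM (E) in the transgenic libraries and 0.533 CPM (D) and 0.786 CPM (F) in the controls (71, 141, 43 and 67 counts). Both transgenic libraries lay above both controls, at 1.26 ± 0.46 against 0.660 ± 0.18 CPM (SD, n = 2 each), a log2 fold change of 0.94 (SE 0.39, 95% interval -0.07 to 1.95). Its unadjusted p was 0.0618 in edgeR's quasi-likelihood test (adjusted p = 1). With the Y-linked covariate the value was 0.42 (SE 0.97), and without library E it was 0.50.

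Icos and Klrg1 did not separate the genotypes. Icos (ENSMUSG00000026009, chromosome 1, 60977927 to 61000320), the co-stimulatory receptor that sustains ILC2s and helper T cells, stood at 1.84 CPM (B) and 2.67 CPM (E) in the transgenic libraries and 1.40 CPM (D) and 1.97 CPM (F) in the controls. Library F lay above B. The log2 fold change was 0.42 (SE 0.31, 95% interval -0.38 to 1.22, adjusted p = 1, edgeR), or -0.07 (SE 0.76) with the Y-linked covariate. Klrg1 (ENSMUSG00000030114, chromosome 6, 122270596 to 122282882), an inhibitory receptor that binds cadherins, stood at 0.424 CPM (B) and 0.474 CPM (E) in the transgenic libraries and 0.223 CPM (D) and 0.610 CPM (F) in the controls (32, 42, 18 and 52 counts). As with Il13 and Il4, the 2 controls enclosed both transgenic libraries, with a ratio of 2.73 between them. The log2 fold change of Klrg1 was 0.10 (SE 0.55, 95% interval -1.31 to 1.51, adjusted p = 1, edgeR). It was -0.44 without control replicate 1 (D) and -1.52 (SE 0.997) with the covariate.

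**Figure D2:**
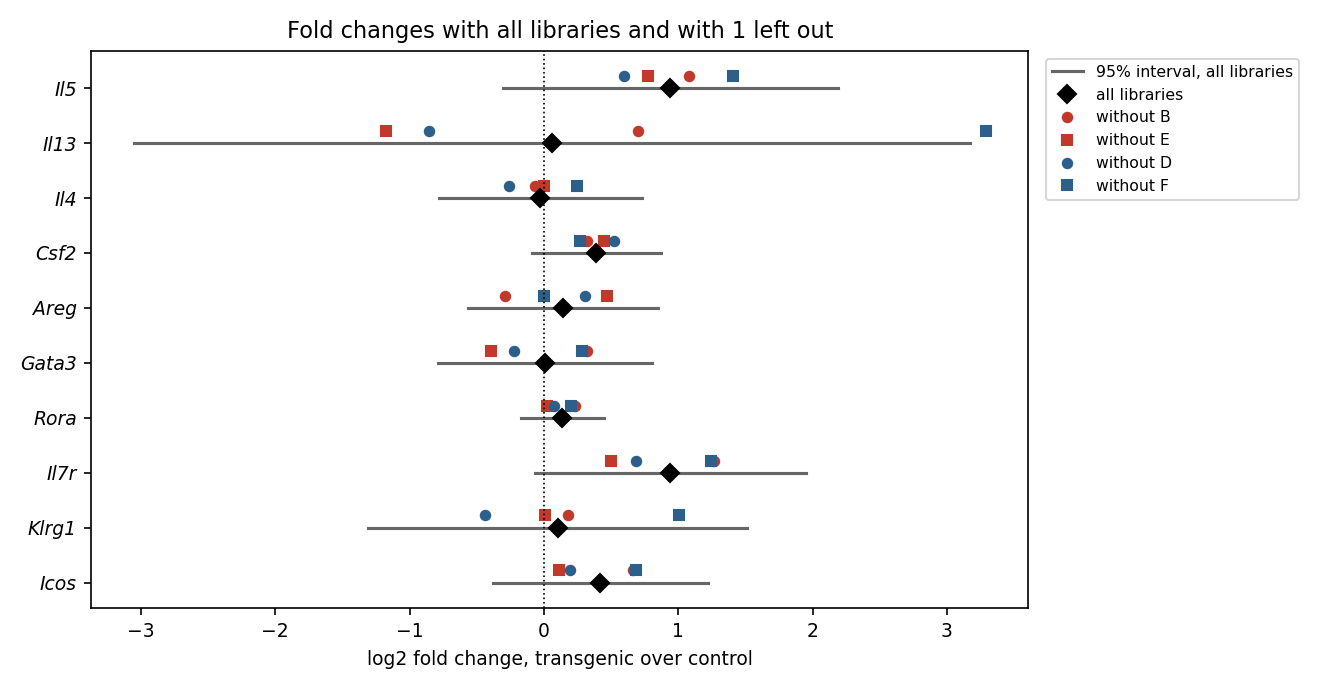
Log2 fold change of transgenic over control libraries for each gene, with all 4 libraries (black diamond, 95% interval as a line) and with 1 library left out (coloured points). All 10 intervals include 0; the points of Il5, Csf2, Rora, Il7r and Icos stay above 0 with any 1 library left out, and those of Il13 run from -1.18 to 3.29.

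Across the libraries, control D held the lowest level of 7 of the 10 genes. Of the 10, 9 were lower in D than in B, 9 lower than in E and 8 lower than in F. The share of all genes with their lowest level in D was not counted. Of the 19 other genes tested within 250 kb of Il4, Il13 and Il5, 8 were lowest in D. Transgenic library E held the highest level of 5 of the 10. Library D was also the library with the highest Y-linked level and the lowest summed level of 8 general leukocyte genes, Ptprc, Cd52, Coro1a, Laptm5, Cd53, Rac2, Itgb2 and Vav1, which reached 83.2 CPM (B) and 127 CPM (E) in transgenic and 37.3 CPM (D) and 75.0 CPM (F) in control libraries.

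Whether Il5 and Il7r separated the genotypes depended on the cell markers they were set against: they did not on the scale of those leukocyte genes or of lung epithelial genes, and they did on the scale of T cell genes. Il5 amounted to 0.286% of the summed leukocyte CPM in B and 0.231% in E, against 0.266% in D and 0.235% in F, so that its range narrowed from 2.96-fold in CPM to 1.24-fold. Il7r amounted to 1.13% in B and 1.25% in E, against 1.43% in D and 1.05% in F, a range of 1.37-fold where that of the CPM was 2.98-fold. On this scale 0 of the 10 genes had both transgenic libraries above both controls and 5 had both below (Il4, Gata3, Rora, Klrg1 and Icos), where the shares over all genes tested were 0.321% and 64.9%. Few genes of any kind lay higher on this scale, so nothing particular to Il5 and Il7r can be read from it. The range narrowed for 5 of the 10 genes (Il5, Il13, Il7r, Klrg1 and Icos) and widened for the other 5. The share of all genes whose range narrowed on this scale was not counted.

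Set against the summed CPM of 17 T cell genes, both transgenic libraries stayed above both controls for Il5 and Il7r. Il5 amounted to 0.656% of the summed T cell CPM in B and 0.784% in E, against 0.375% in D and 0.546% in F, a range of 2.09-fold. Il7r amounted to 2.59% in B and 4.25% in E, against 2.01% in D and 2.44% in F, a range of 2.11-fold. These were 2 of the 10 genes on this scale, and 2 others, Il4 and Rora, had both transgenic libraries below, where the shares over all genes tested were 1.86% and 56.8%. Csf2 overlapped, at 17.4% (B), 15.3% (E), 18.8% (D) and 13.0% (F). The largest parts of the T cell sum came from Cd247 and Zap70 (log2 fold changes 0.08 and 0.03). Cd3g and Cd28, at 1.75 and 1.24, made less of it, where Il5 and Il7r had 0.94 each. Whether Il5 and Il7r separate the genotypes on a scale without Cd247 and Zap70 was not tested.

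Set against the 16 lung epithelial genes, it was Areg whose libraries drew together. Areg amounted to 0.0862% (B), 0.0788% (E), 0.0822% (D) and 0.0934% (F) of the summed epithelial CPM, a range of 1.19-fold where that of the CPM was 1.71-fold. Csf2 amounted to 0.00974% (B), 0.0138% (E), 0.00929% (D) and 0.0109% (F), so its range of 1.49-fold was close to the 1.5-fold of the CPM, and its genotypes overlapped. Only these 2 of the 10 genes had a narrower range on this scale. The share of all genes whose range narrowed on it was not counted. On this scale, 0 of the 10 had both transgenic libraries above both controls and 0 both below. The shares over all genes tested were 2.35% and 5.4%. Most of the epithelial sum came from the surfactant gene Sftpc, at 36300 CPM (B), 21800 CPM (E), 30100 CPM (D) and 20000 CPM (F). This scale therefore follows Sftpc more than the other epithelial genes. What part the leukocyte, T cell and epithelial content of the libraries had in the levels of the 10 genes was not tested.

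**Figure D3:**
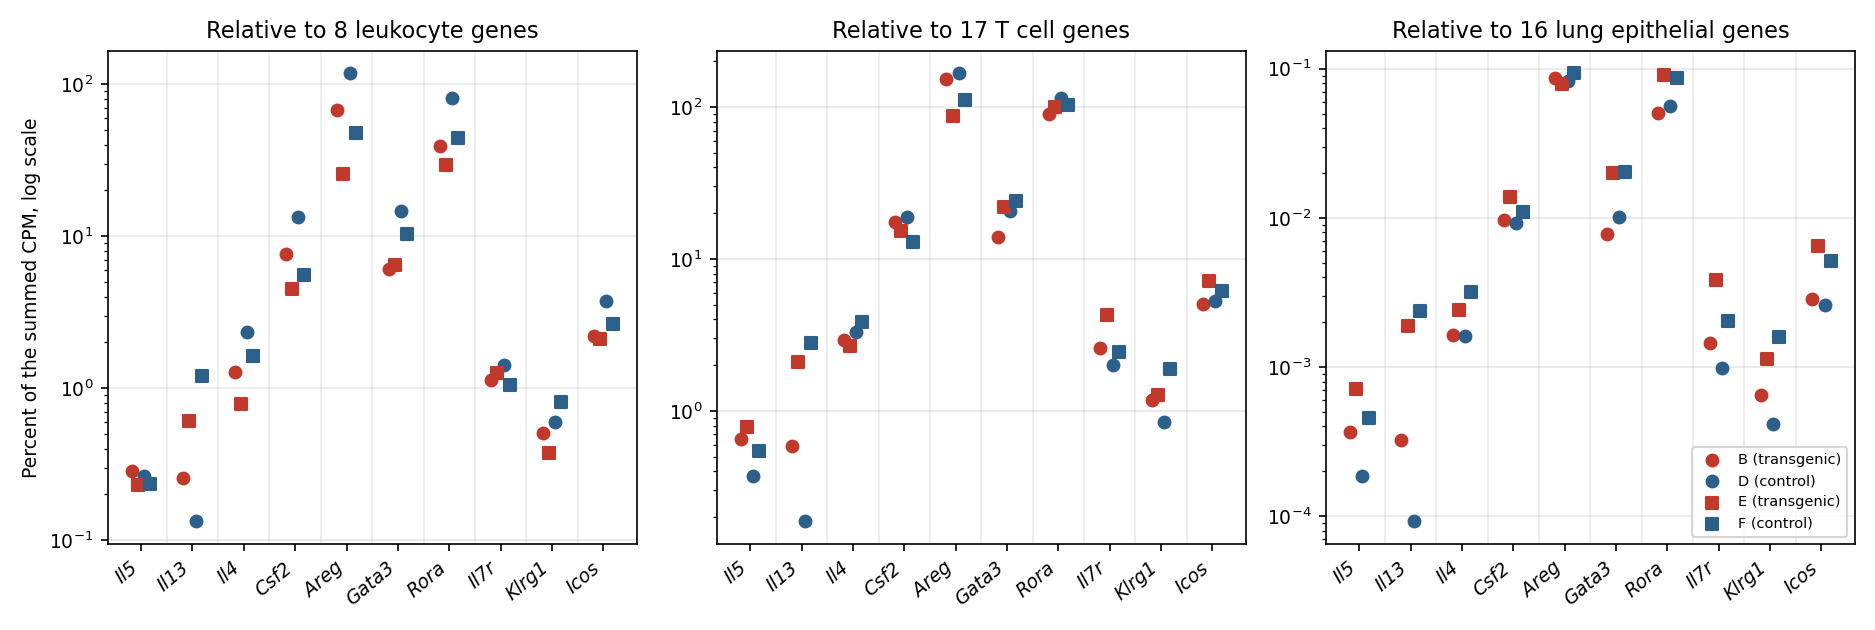
Level of each gene as a percent of the summed CPM of 8 leukocyte genes (left), 17 T cell genes (middle) and 16 lung epithelial genes (right), on log scales, in transgenic (red) and control (blue) libraries. The points of Il5 and of Il7r lie close together on the left (ranges of 1.24-fold and 1.37-fold) and are spread in the middle with both red points above both blue ones (2.09-fold and 2.11-fold), and on the right those of Areg lie close together (1.19-fold).

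Il4, Il13 and Il5 lie side by side on chromosome 11, the type 2 cytokine locus, with the DNA repair gene Rad50 between Il13 and Il5 and the kinesin gene Kif3a next to Il4. Il4 and Il13 are 12654 bases apart, Il13 and Il5 86091 bases, and Csf2 lies 522164 bases beyond Il5 (coordinates of the table, GRCm38). The 3 cytokine genes ordered the libraries differently, with D lowest for each but F highest for Il13 and Il4 and E highest for Il5. Rad50 stood at 37.4 CPM (B) and 34.7 CPM (E) in the transgenic libraries and 31.9 CPM (D) and 33.8 CPM (F) in the controls, and Kif3a at 38.6 and 31.4 CPM against 31.6 and 33.6 CPM, so neither had a spread like that of Il13. Within 250 kb of the 3 genes, 19 other genes were tested, of which 0 were called, 2 had both transgenic libraries above both controls and 3 both below (11.9% and 12.0% over all genes). Among the 3 was Irf1, a transcription factor gene of interferon responses (log2 fold change -0.39, SE 0.19). It stood at 157.6 CPM (B) and 109.8 CPM (E) in the transgenic libraries and 180.6 CPM (D) and 169.6 CPM (F) in the controls. The predicted gene Gm17334, also among the 3, lies within Irf1, so the counts of this pair need not be independent. The other was the pseudogene Rpl9-ps3, with at most 13 counts in any library.

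**Figure D4:**
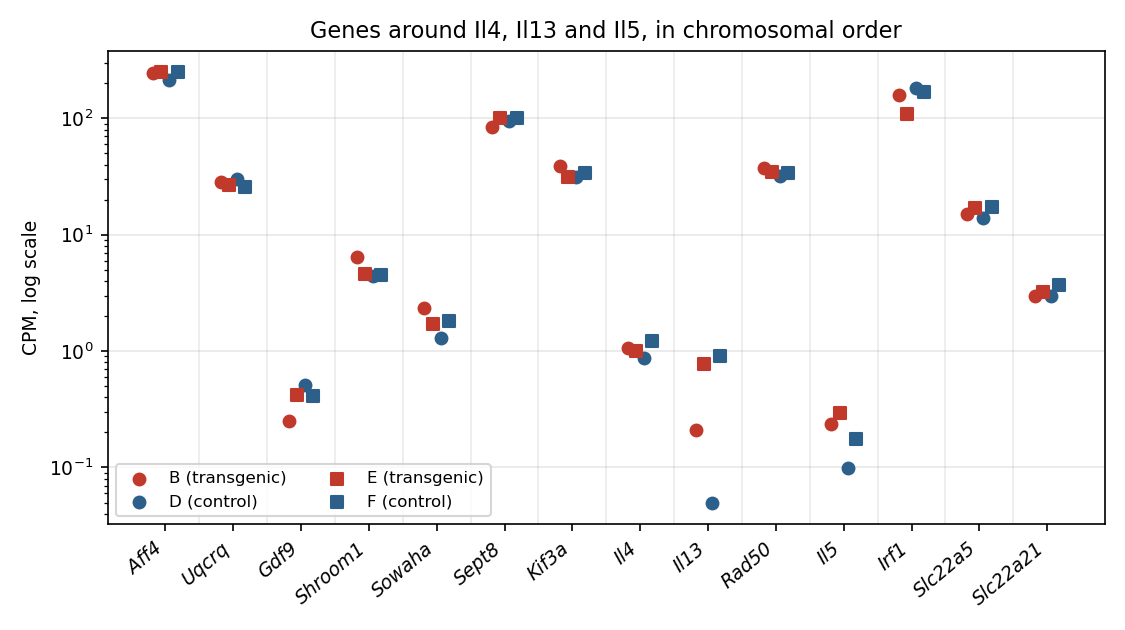
Level in CPM on a log scale of the tested genes within 250 kb of Il4, Il13 and Il5, in chromosomal order, with predicted genes, pseudogenes and microRNAs left out of the plot. The points of Il13 are spread over more than those of any other gene drawn, while its neighbours Kif3a and Rad50 have 4 points close together. Of the genes left out, the microRNA gene Mir7671 spread further, at 0.781 CPM (B), 0.0113 CPM (E), 0.67 CPM (D) and 0.223 CPM (F).

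Genes whose level followed the same course over the 4 libraries were sought for the 6 of the 10 that averaged at least 1 CPM, by the root mean square (RMS) difference of centred log2 CPM over 13756 genes. For Areg the nearest were Tgm1 (RMS difference 0.0071), Lenep and Tdrd5, and for Gata3 they were Fat4 (0.0061), Bmpr2 and Slc2a13. For Rora they were Pura (0.0060), Kif21b and Pou2f1, and for Csf2 Mpp6 (0.025), Mrps18b and Lpar3. For Il4 they were Mir1893 (0.021), Mr1 and Ctxn1, and for Icos Pirb (0.038), B4galnt1 and Abcg3. With 4 libraries many genes follow a like course by this measure: 1786 genes lay within 0.1 of Rora, 306 of Il4, 251 of Areg, 226 of Gata3, 87 of Csf2 and 21 of Icos.

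The other genes of this pathway were read from lists, and 0 members of any list below were called in either direction (edgeR, adjusted over all genes). For reading the counts of every list, 11.9% of all genes tested lay above both controls in both transgenic libraries, 12.0% lay below, and 49.6% had values above 0. Of 15 receptors and ligands of the proteins above, all tested, 8 had log2 fold changes above 0 (median 0.06), 1 lay above in both transgenic libraries and 2 below. The GM-CSF receptor gene Csf2ra stood at 7.65 CPM (B) and 9.07 CPM (E) in the transgenic libraries and 6.28 CPM (D) and 6.10 CPM (F) in the controls (log2 fold change 0.43, SE 0.17). Cdh2, encoding N-cadherin, a ligand of KLRG1, stood at 10.3 and 14.3 CPM against 14.7 and 16.1 CPM (-0.32, SE 0.19).

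Of 24 signals that activate ILC2s and their receptors, 20 were tested, 17 had values above 0 (median 0.25), and 5 lay above and 0 below in both transgenic libraries (11.9% and 12.0% of all genes). The 5 include Il33, the over-expressed gene itself. After Il33 the leading members were Il17ra, the shared receptor chain of IL-17 and IL-25 (log2 fold change 0.29, SE 0.12), and Ltb4r1, the leukotriene B4 receptor gene (0.66, SE 0.30). Il25 and Il9 were at 0 counts in every library, which allows up to 0.0397 CPM in the shallowest (3 counts). Of 21 transcription factor genes of innate lymphoid and T cells, all tested, 14 had values above 0 (median 0.10), 2 lay above and 1 below (11.9% and 12.0% of all genes). They were led by Runx1 (0.29, SE 0.14) and Tox (-0.34, SE 0.22).

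Of 21 genes that respond to IL-4 and IL-13, 19 were tested, 8 had values above 0 (median -0.11), and 3 lay above and 3 below in both transgenic libraries, near the shares over all genes (11.9% and 12.0%). Of the 4 members with the smallest p, 3 had log2 fold changes above 0: Slc26a4, encoding the anion exchanger pendrin (0.85, SE 0.20), Retnla, encoding RELMα (0.79, SE 0.18), and Ccl24, encoding the eosinophil chemokine eotaxin-2 (1.56, SE 0.53). The other, Fcgbp, encoding a protein of mucus, had -0.89 (SE 0.33).

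Markers of cells that share the 10 genes were low, and several lay higher in both transgenic libraries. Of 17 T cell genes, all tested, 16 had values above 0 (median 0.51) and 9 lay above both controls (11.9% of all genes), led by Cd3g (1.75, SE 0.27) and Cd28 (1.24, SE 0.22). The summed T cell level was 36.3 CPM (B) and 37.4 CPM (E) in the transgenic libraries and 26.5 CPM (D) and 32.2 CPM (F) in the controls. Of 10 natural killer cell genes 9 were tested, all 9 with values above 0 (median 0.89) and 5 above both controls (11.9% of all genes), led by Il2rb (0.63, SE 0.24) and Gzma (1.18, SE 0.53). Their sum was 6.74 and 5.13 CPM against 3.82 and 3.11 CPM, and Klra8 was at 0 in every library. Of 10 B cell genes 8 were tested, 7 with values above 0 (median 0.52) and 1 above both controls, Ighm (1.66, SE 0.40), followed by Cd79b (0.38, SE 0.28), and the sums were 20.6 and 19.2 CPM against 12.3 and 12.9 CPM. Of the general leukocyte genes 8 of 8 had values above 0 (median 0.87) and 6 lay above both controls (11.9% of all genes), led by Coro1a (0.90, SE 0.26) and Cd52 (0.76, SE 0.24).

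Mast cells and basophils make type 2 cytokines as well, and eosinophils answer IL-5. Of 11 mast cell and basophil genes 9 were tested, 3 with values above 0 (median -0.12) and 0 above or below in both transgenic libraries, led by Hdc (0.31, SE 0.19) and Gata2 (-0.31, SE 0.34), which other lung cells also express. The genes of mast cell and basophil granules and of the IgE receptor were scarcer. Mcpt8, a basophil protease gene, stood at 0.477 CPM (B) and 2.28 CPM (E) in the transgenic libraries and 0.0496 CPM (D) and 2.95 CPM (F) in the controls. Ms4a2, encoding the IgE receptor β chain, stood at 0.159 CPM (B), 0.925 CPM (E), 0.0993 CPM (D) and 1.19 CPM (F), and Cpa3, the carboxypeptidase gene of both cell types, at 0.146 CPM (B), 0.993 CPM (E), 0.273 CPM (D) and 0.798 CPM (F). All 3 were high in E and F and low in B and D, and Mcpt8 and Ms4a2 ranked the libraries as Il13 did. That order was not particular to them. Klrg1 had it too, as did Il17rb and Nmur1 from the list of signals that activate ILC2s. Il17rb stood at 0.291 CPM (B), 0.463 CPM (E), 0.223 CPM (D) and 0.54 CPM (F). The share of all genes with that order was not counted. The mast cell protease genes did not have it: Cma1 stood at 0.0794 CPM (B), 0.158 CPM (E), 0.199 CPM (D) and 0.106 CPM (F), and Mcpt4 and Tpsb2 were at or under 0.237 CPM in every library. The sum over the list, most of it from Hdc, Kit and Gata2, was 574 and 635 CPM against 566 and 611 CPM. Of 8 eosinophil genes only 4 were tested, 3 with values above 0 (median 0.67) and 1 above both controls, led by Ear6 (1.43, SE 0.65) and Siglecf (1.14, SE 0.91), which alveolar macrophages share. The eosinophil sum was 2.67 and 8.83 CPM against 1.68 and 6.55 CPM, and Prg3 was at 0 in every library. Epithelial markers had 14 of 16 values above 0 (median 0.15), led by Lamp3 (0.30, SE 0.23) and Sftpa1 (0.28, SE 0.28), endothelial markers 0 of 10 (median -0.23), led by Egfl7 (-0.34, SE 0.21) and Cldn5 (-0.40, SE 0.26), and those of fibroblasts and smooth muscle 1 of 10 (median -0.29), led by Tcf21 (-0.40, SE 0.29) and Dcn (-0.21, SE 0.16). The part of these cells in the levels of the 10 genes was not tested.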

How the data were processed

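The labels' protocols name a Qiagen RNeasy extraction and polyadenylated RNA, and the submitters' processing notes name TopHat2 (2), Bowtie (1), featureCounts (1) and the build mm10 (GRCm38). The gene annotation, the strand setting and the handling of multiply mapped reads were not given in the sources used here. The authors deposited whole-number counts per gene, not normalized, and RPKM values, scaled to totals of which the gene counts made 80.3% to 82.7%. The RPKM values were used only to compare levels between genes. All mitochondrial genes were at 0.

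Genes were filtered with filterByExpr (minimum count 10, total 15), scaled by TMM and tested with edgeR 4.0.16 (R 4.3.3), quasi-likelihood, transgenic against control, with no covariate, Benjamini-Hochberg adjustment at 0.05. The SE is the log2 fold change over the square root of the F statistic, and 95% intervals use the fit's degrees of freedom. CPM use TMM-scaled library sizes. Symbols of other genes came from GENCODE M21 by identifier (42462 of 43346). For Areg and Il7r the gene limits of the table differ from GENCODE M21. Alternatives were other scalings and filters, each library left out, DESeq2 1.42.0, limma-voom (limma 3.58.1), robust or non-legacy dispersions and the Y-linked share as a covariate. Nearest genes used log2(CPM + 0.1).

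The members, lists and alternatives were chosen with earlier results of these data known. All 10 genes are named. Of each other list the leading members by p (2 or more) are named, as are the 3 nearest genes of those averaging 1 CPM and, within 250 kb of Il4, Il13 and Il5, the genes read in chromosomal order. Kif3a, Rad50, Irf1, Mir7671, Gm17334, Rpl9-ps3, Mcpt8, Ms4a2, Cpa3, Cma1, Mcpt4, Tpsb2, Il17rb, Nmur1, Cd247, Zap70, Sftpc and the overlapping genes were singled out after their values were seen.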

Additional observations from a re-analysis of the deposited data

How the results depend on the processing

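In none of 13 alternatives did any of the 10 genes pass, the smallest adjusted p being 0.376 (Areg without transgenic replicate 2). Of 126 recomputed fold changes 114 kept their direction and 12 turned. Without 1 library they turned for Il13 (-0.854 without D, -1.178 without E, range to 3.289). They also turned for Il4 (0.002011 without E, 0.247 without F, range from -0.256) and Areg (-0.291 without B, range to 0.47). The same held for Gata3 (-0.22 without D, -0.394 without E, range to 0.321) and Klrg1 (-0.441 without D, range to 1.003). With the Y-linked covariate they turned for Il13 (-3.493, SE 1.69), Gata3 (-0.468, SE 0.66), Klrg1 (-1.525, SE 0.997) and Icos (-0.071, SE 0.76). As that covariate largely ran with genotype, these fold changes can hardly tell the share of male RNA from genotype. Those of Il5, Csf2, Rora and Il7r kept their direction in every alternative that gave a value; with 1 CPM required in 2 libraries, Il5, Il13, Il7r and Klrg1 were not tested. The count of genes with both transgenic libraries above the controls, 3 of 10, ran from 3 to 8 with 1 library left out (6 without B, 8 without F), and the count below, 0, from 0 to 3 (3 without D); over all genes tested the shares then ran from 27.1% to 35.6% above and from 27.0% to 38.7% below. Over all genes the calls were 0, but 1 by DESeq2 (Il33) and 0 to 15 with 1 library left out. No paired analysis was possible because the labels give letters and no replicate numbers, and the numbers used here only name the libraries. With 2 libraries per genotype the intervals are wide, from 0.62 on the log2 scale (Rora) to 6.22 (Il13), and for Il5 and Il13 counting error adds to it.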
